A study of Rattus norvegicus with 21 samples.

Results

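Liver transcripts of male Harlan Sprague Dawley rats given 2-ethylhexyl diphenyl phosphate (EHDP, which the labels also spell EDHP) at 61.2 mg/kg, the lowest dose of the study, were compared with those of rats given the corn oil vehicle. The arrays were chosen by their titles, 3 that read 61.2 mg/kg and 6 that read 0 mg/kg, which makes 9 of the 21 arrays of the series. The other 12 arrays cover 122.5, 244.6, 489.2 and 978.5 mg/kg with 3 each. Both groups were gavaged with corn oil on 4 days, in the treated group with EHDP dissolved in it, and pieces of the left liver lobe were frozen on day 5. The age of the rats is not stated in the labels. The protocol speaks of 5 vehicle rats, whereas 6 arrays carry the dose 0, and it rounds the dose to 61 mg/kg, or 0.169 mmol/kg. Each array measured RNA of bulk liver on an Affymetrix rat expression array, and its values are log2 signals. The comparison asks which of 14218 measured genes differed between the lowest dose and the vehicle. All were described, and only those with a Benjamini-Hochberg adjusted limma p under 0.05 over all genes are said to have risen or fallen.

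EHDP is an organophosphate ester used as a plasticiser and flame retardant. The liver clears such compounds by oxidation and ester cleavage, then joins the products to glucuronic acid, sulfate or glutathione and exports them. The nuclear receptors CAR and PXR switch on many of these enzymes when foreign compounds enter hepatocytes. NRF2, a transcription factor that is held in the cytoplasm until electrophiles or oxidants release it, switches on glutathione synthesis, glutathione transferases and reductases through the antioxidant response element in their promoters.

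Transcripts of 2 enzymes of conjugation rose at 61.2 mg/kg, and no transcript fell past the threshold. Ugt2b1, which joins glucuronic acid to steroids and phenols, rose 1.79-fold, and Gsta3, an alpha-class transferase that joins glutathione to electrophiles, rose 2.76-fold. These were 2 of the 14218 genes tested with limma, or 0.0141%. At an unadjusted limma p under 0.05 there were 779 genes (5.48%), of which 443 (3.12%) were higher and 336 (2.36%) lower. A looser rule, an unadjusted limma p under 0.05 together with a 1.5-fold difference, held for 42 genes (0.295%), of which 39 were higher (0.274%) and 3 lower (0.0211%). In 19 of these 42 the treated and the vehicle arrays did not overlap. Over all genes the treated arrays lay wholly above the vehicle in 1.48% and wholly below in 0.893%. The 42 were picked by p and fold from these same arrays, which favours genes without overlap. The median log2 difference of all genes was 0.00, which the matching of array distributions in RMA, the averaging method behind these signals, fixes near 0 beforehand. Array medians ran from 6.33 to 6.41 on the log2 scale, and each array correlated with the rest at 0.987 (vehicle replicate 6) to 0.994 on average. The labels give 3 treated arrays, and that number limits the precision of each difference. They do not tie the arrays to single rats, so that p-values measure the spread between arrays.

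**Figure D1:**
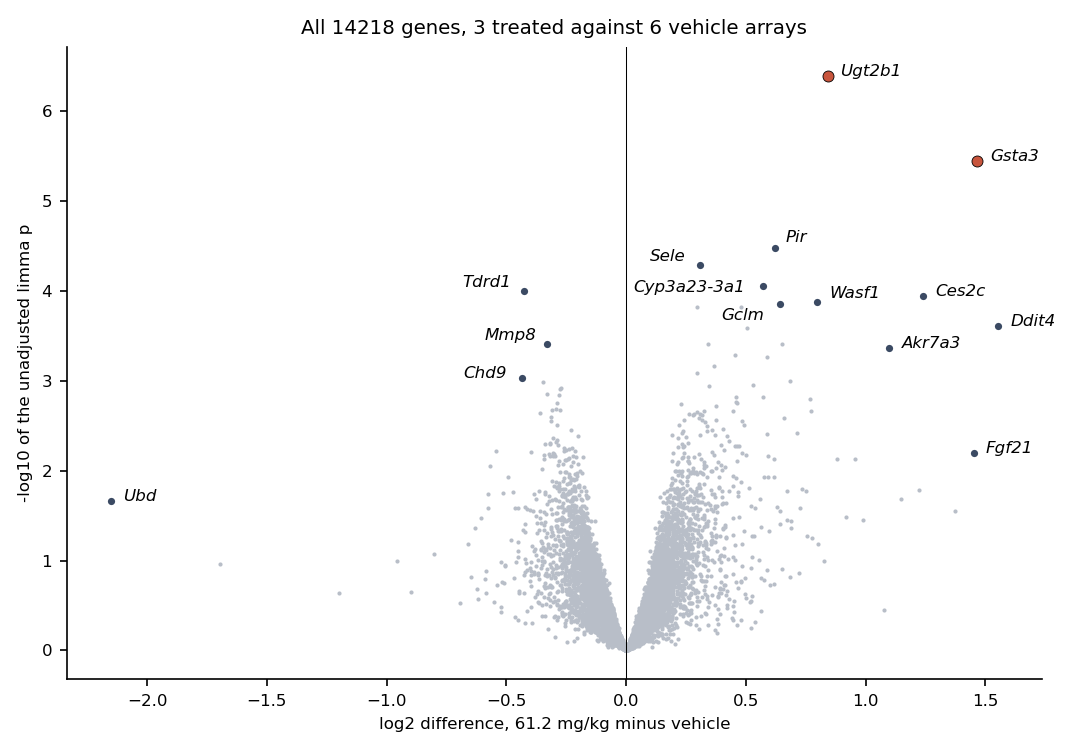
Log2 difference between 61.2 mg/kg and vehicle (horizontal, treated minus vehicle) against -log10 of the unadjusted limma p (vertical) for 14218 genes, each a point. The coloured points are the 2 genes past the adjusted threshold, Ugt2b1 at 0.84 and Gsta3 at 1.47, and the dark points are other genes named in the text, with Ubd the farthest to the left at -2.15.

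Ugt2b1 signals in the vehicle arrays ran from 12.46 to 13.10 with a median of 12.74, on the log2 scale as are all signals here. The treated arrays stood at 13.62, 13.66 and 13.63. All treated arrays lay above every vehicle array, and they differed little among themselves, with an SD of 0.02 beside 0.25 in the vehicle. The log2 difference was 0.84 ± 0.11 (SE, n = 3 against 6, 95% confidence interval 0.61 to 1.08, limma adjusted p = 0.00572). The gene was called in 17 of 21 alternative analyses. These share most arrays, and both with a replicate block are the same fit, so they are not separate checks. The call was lost when the spread was taken from the 9 compared arrays alone (limma adjusted p = 0.166). It was lost too without treated replicate 1, 2 or 3 (limma adjusted p = 0.0691, 0.0966 and 0.0754), while the difference stayed between 0.83 and 0.85.

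Gsta3 in the vehicle arrays ran from 7.54 to 8.39 with a median of 8.03. The treated arrays stood at 9.65, 9.38 and 9.46, so that the groups were far from overlapping. The log2 difference was 1.47 ± 0.23 (SE, n = 3 against 6, 95% confidence interval 0.99 to 1.95, limma adjusted p = 0.0255). Over the same 21 alternatives the difference ran from 1.30 to 1.63, and the call held in 6 of them. It was lost without treated replicate 1, 2 or 3 (limma adjusted p = 0.461, 0.159 and 0.155) and without vehicle replicate 1, 2, 3 or 6 (limma adjusted p = 0.0616, 0.0657, 0.0501 and 0.0723). Each gene is read by 1 probe set. Both belong to families of close relatives, and how much signal the probes take from relatives was not tested.

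Promoter sequences are shown for both genes and for 3 others, picked because they hold a match, since NRF2 and PXR bind known motifs close to the start of some of their target genes. They are the 250 bases before the start of transcription in RefSeq, rat build GRCr8, written 5′ to 3′ on the gene's strand. The array data bear on the transcripts and not on binding. The antioxidant response element core was searched as TGACNNNGC and the repeat bound by PXR as TGAACT, 3 bases of any kind and TGAACT again, each on both strands. The motifs were chosen after the leading genes were known, and capitals mark the matches. The core occurs in 10.1% of the 33469 windows of this length in the table, the repeat in 2 of them. Only this exact form of the repeat was searched, so its rarity does not show that PXR acts on a gene that holds it. Whether PXR acts on any of these genes was not tested.
Ugt2b1, chr14:21378632-21378881, + strand, no match to either motif: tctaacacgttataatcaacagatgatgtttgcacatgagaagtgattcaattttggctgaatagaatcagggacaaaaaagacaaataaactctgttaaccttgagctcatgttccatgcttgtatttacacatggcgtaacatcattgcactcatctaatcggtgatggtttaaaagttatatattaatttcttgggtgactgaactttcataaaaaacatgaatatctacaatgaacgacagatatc
Gsta3, first of 2 listed starts, chr9:31154739-31154988, + strand, core match 17 to 9 bases before the start: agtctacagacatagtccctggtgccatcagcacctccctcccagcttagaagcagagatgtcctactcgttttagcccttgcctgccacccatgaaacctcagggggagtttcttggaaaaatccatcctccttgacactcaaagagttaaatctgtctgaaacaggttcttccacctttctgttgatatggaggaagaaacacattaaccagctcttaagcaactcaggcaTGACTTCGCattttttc
Pir, chrX:33851050-33851299, - strand, core matches on the reverse strand 114 to 106 and 9 to 1 bases before the start: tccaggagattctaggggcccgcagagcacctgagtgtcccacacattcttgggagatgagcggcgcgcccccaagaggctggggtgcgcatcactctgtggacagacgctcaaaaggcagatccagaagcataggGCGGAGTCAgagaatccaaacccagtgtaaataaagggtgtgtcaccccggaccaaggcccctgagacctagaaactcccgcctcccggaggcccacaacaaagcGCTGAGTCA
Gclm, chr2:213031885-213032134, + strand, core match on the reverse strand 172 to 164 bases before the start: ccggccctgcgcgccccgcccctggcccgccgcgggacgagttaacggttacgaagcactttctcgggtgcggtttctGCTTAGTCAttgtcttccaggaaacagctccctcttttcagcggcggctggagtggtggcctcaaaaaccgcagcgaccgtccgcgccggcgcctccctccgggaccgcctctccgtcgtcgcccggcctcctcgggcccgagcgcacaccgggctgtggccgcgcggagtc
Cyp3a23-3a1, chr12:14398804-14399053, - strand, repeat match 144 to 130 bases before the start: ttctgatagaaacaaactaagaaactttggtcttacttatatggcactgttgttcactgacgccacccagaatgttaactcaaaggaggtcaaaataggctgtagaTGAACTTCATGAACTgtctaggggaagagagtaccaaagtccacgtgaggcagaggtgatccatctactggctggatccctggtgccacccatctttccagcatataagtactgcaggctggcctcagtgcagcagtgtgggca
Of the 11 leading genes with a window, 5 held a match at the first listed start and 6 at any listed start. The 5 with none were Ugt2b1, Sele, Ces2c, Wasf1 and Akr7a3. The leading genes were picked by no fixed rule, and Me1 among them was only 53rd by p. All but Sele and Wasf1 are on the NRF2 or the CAR and PXR list. Matches among them were thus partly built in and give no share among the genes of smallest p. The only other window with the repeat was that of Cyp3a2. The second listed start of Gsta3 has no match, and no match says only that these letters are absent from this window. Of 22 NRF2 target genes with a window, 8 held the core (36.4%), beside 13% of 11734 measured genes. On the CAR and PXR list it was 1 of 21 (4.76%). The NRF2 list was written from known targets of a factor that acts through this element. A larger share was thus built in and says nothing about these arrays.

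Among the genes with the next smallest p, none passed the threshold, and several act in the same processes. Pir encodes pirin, an iron-binding nuclear protein. Its vehicle signals ran from 7.30 to 7.69 with a median of 7.49, and its treated signals were 8.27, 7.93 and 8.11. The groups did not overlap, with a log2 difference of 0.62 ± 0.12 (SE, n = 3 against 6, limma adjusted p = 0.157). Cyp3a23-3a1, a cytochrome P450 that oxidises drugs and steroids, ran from 13.11 to 13.44 with a median of 13.26 in the vehicle and stood at 13.66, 13.92 and 13.90 after treatment. Its arrays did not overlap either, and its log2 difference was 0.57 ± 0.12 (SE, limma adjusted p = 0.196). Ces2c, a carboxylesterase that cleaves esters, ran from 8.52 to 9.21 with a median of 9.12 in the vehicle against 9.97, 10.41 and 10.30. This was a log2 difference of 1.24 ± 0.26 (SE, limma adjusted p = 0.196) with no overlap. Gclm, the modifier subunit of the enzyme that makes glutathione's precursor, ran from 10.31 to 10.997 with a median of 10.88 against 11.39, 11.31 and 11.54. Its log2 difference was 0.64 ± 0.14 (SE, limma adjusted p = 0.196).

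Wasf1, a regulator of actin assembly, was the gene of this group whose vehicle arrays were most split. Replicates 1 and 3 stood at 7.77 and 7.83 and the other vehicle arrays between 6.95 and 7.14, against treated values of 8.10, 7.95 and 8.28. Its log2 difference was 0.80 ± 0.17 (SE, limma adjusted p = 0.196). Against vehicle replicates 1 to 3 alone it was 0.53 (limma adjusted p = 0.797), and against replicates 4 to 6 alone 1.07 (limma adjusted p = 0.00210). This split by number was added after the data were seen. Replicates 4 to 6 hold the lowest vehicle signals of Wasf1, which favours the smaller p. Replicate 2, at 7.14, lay with them and not with replicates 1 and 3. Sele, the endothelial adhesion molecule E-selectin, had a log2 difference of 0.31 ± 0.06 (SE, limma adjusted p = 0.184), with vehicle values of 3.47 to 3.59 and treated values of 3.89, 3.76 and 3.88. All its signals lay under the 20th percentile of the arrays, where levels have little meaning. Ddc, which decarboxylates aromatic amino acids, and Nmrk1, a kinase of the NAD pathway, are named here after their values were seen. Their log2 differences were 0.48 ± 0.10 and 0.29 ± 0.06 (SE, limma adjusted p = 0.196 for both), but the other probe set of Ddc gave 0.10.

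On the lower side, the 8 genes of smallest p with no overlap were all short of the threshold, and all but Chd9 and Scmh1 lay below the middle of the signal range. Tdrd1, a germ cell gene of the piRNA pathway, had the smallest p with a log2 difference of -0.42 ± 0.09 (SE, n = 3 against 6, limma adjusted p = 0.196). All its signals lay under the 20th percentile of the arrays, as did those of Stfa3 (-0.29), whose other probe set gave 0.02. Mmp8, the collagenase of neutrophils, stood at 4.53, 4.52 and 4.52 after treatment and from 4.64 to 5.02 in the vehicle (limma adjusted p = 0.345). Its treated signals lay under the 20th percentile too, and with that level as a floor its difference of -0.33 became -0.12. The brightest of the 8 was Chd9, a chromatin remodeller, with 8.54, 8.46 and 8.15 against 8.65 to 9.05 and a log2 difference of -0.44 ± 0.11 (SE, limma adjusted p = 0.601), but its other probe set gave -0.06. Crtac1 (-0.35), Scmh1 (-0.27), Sapcd1 (-0.27) and Ccn3 (-0.28) had limma adjusted p-values from 0.618 to 0.668, and probe sets of Crtac1 reached 0.02. Vehicle replicate 2 of Sapcd1 stood apart from the other vehicle arrays at 6.30.

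Of 24 measured NRF2 target genes, 12 were higher at an unadjusted limma p under 0.05 and 0 lower, beside 3.12% and 2.36% of all genes. This list and those below were chosen with earlier results of these data known, which can favour members that differ. Their counts beside all genes are thus descriptions and not tests. In 11 of the 24 all treated arrays lay above all vehicle arrays, which held for 1.48% of all genes. The median log2 difference of the list was 0.32, and 1 member, Gsta3, passed the adjusted threshold. The list means of the treated arrays stood 0.38, 0.50 and 0.26 above the vehicle mean, while the vehicle arrays lay between -0.09 and 0.06. Apart from Gsta3, the members of glutathione supply were Gclm and Gclc, the catalytic subunit, at 0.41 ± 0.14 (SE, n = 3 against 6, limma adjusted p = 0.827). Gsr, which reduces oxidised glutathione and is named after its values were seen, ran from 7.50 to 8.05 with a median of 7.71 in the vehicle. Its treated signals were 8.35, 8.26 and 8.56, a log2 difference of 0.65 ± 0.15 (SE, limma adjusted p = 0.345) with no overlap. Srxn1 (0.46) and Txnrd1 (0.28), which regenerate peroxiredoxins and thioredoxin, also had an unadjusted limma p under 0.05.

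The NRF2 target of largest difference after Gsta3 was Akr7a3, an aldo-keto reductase that detoxifies aflatoxin aldehyde, again named after its values were seen. It stood at 12.71, 12.52 and 12.12 after treatment, and at 11.20 to 11.34 in 5 vehicle arrays with vehicle replicate 4 apart at 11.81. The groups did not overlap, and the log2 difference was 1.10 ± 0.26 (SE, n = 3 against 6, limma adjusted p = 0.365). Me1, which makes NADPH from malate, had vehicle signals of 8.28 to 9.25 with a median of 8.89 and treated signals of 9.61, 9.48 and 9.53 (0.66 ± 0.19 SE, limma adjusted p = 0.679). Ephx1, the microsomal epoxide hydrolase, which is also on the CAR and PXR list, ran from 12.63 to 13.20 with a median of 12.90 against 13.33, 13.50 and 13.40 (0.50 ± 0.11 SE, limma adjusted p = 0.281). Both were higher in every treated array than in any vehicle array. Nqo1, the quinone reductase often used to read NRF2, was also higher in all 3, at 9.29, 9.54 and 9.40 against 8.73 to 9.05. Its log2 difference of 0.48 ± 0.25 had an unadjusted limma p of 0.0661. The SD was 0.11 in the vehicle and 0.12 at 61.2 mg/kg, while that at 489.2 mg/kg, which enters the same estimate of spread, was 0.92. Hmox1, haem oxygenase, stood at 0.06 and Slc7a11, the cystine carrier, at 0.08.

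**Figure D2:**
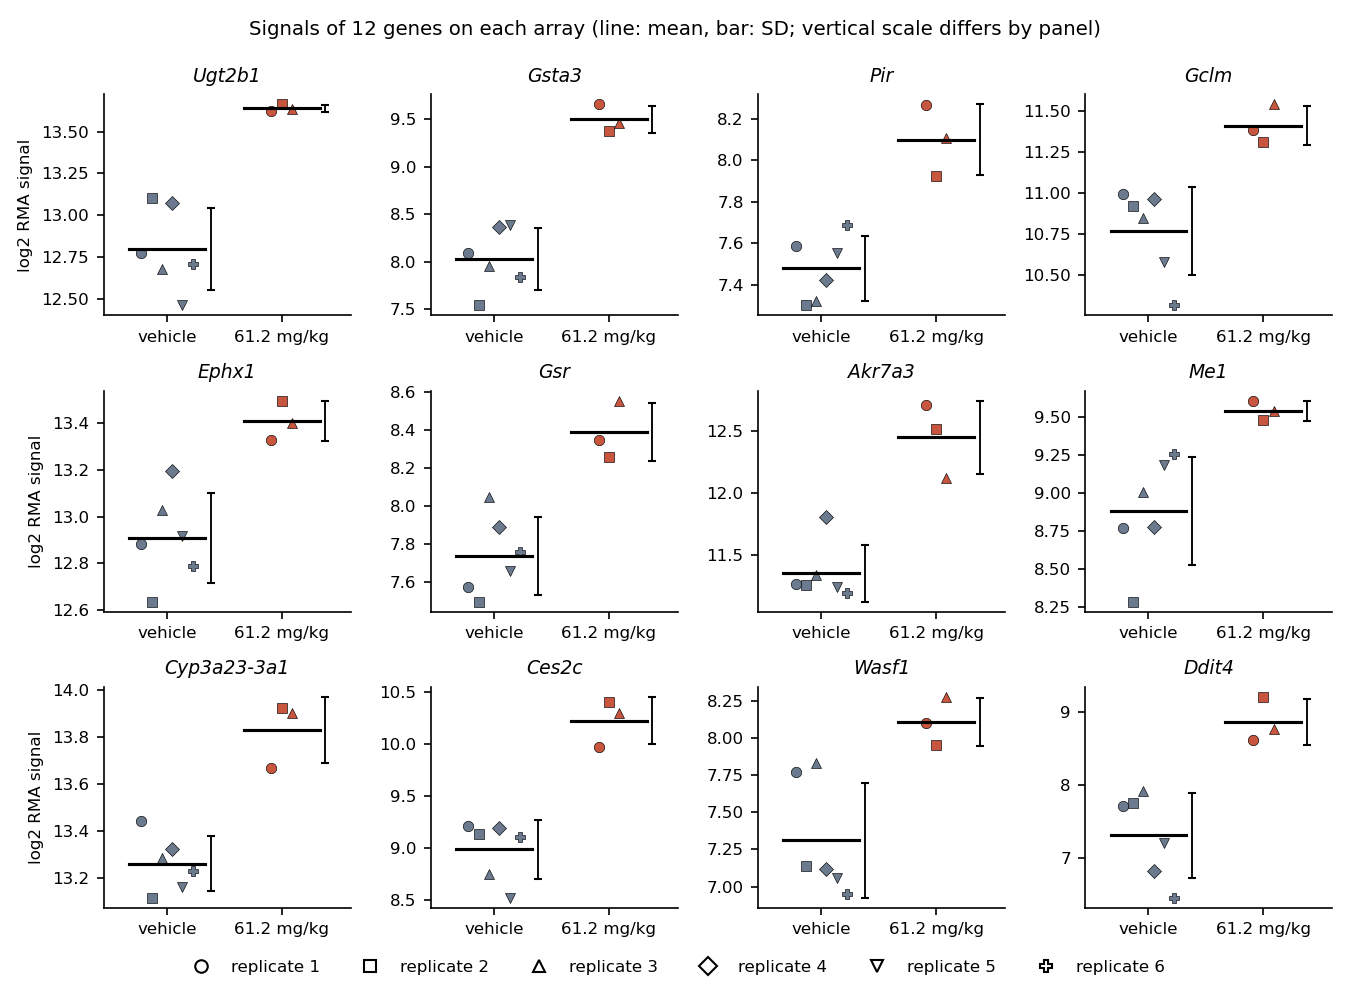
Log2 signals of 12 genes on each vehicle array and each array at 61.2 mg/kg, with a marker for each replicate number, a line at the group mean and a bar for the SD. The vertical scale differs by panel. In all 12 panels the 3 treated arrays lie above the 6 vehicle arrays, and only Ugt2b1 and Gsta3 passed the adjusted threshold.

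Of 23 measured CAR and PXR target genes, 12 were higher at an unadjusted limma p under 0.05 and 0 lower, beside 3.12% and 2.36% of all genes, and 1 of them, Ugt2b1, passed the adjusted threshold. In 8 of the 23 the arrays did not overlap, with the treated ones above (1.48% of all genes). The median log2 difference was 0.23, with list means of 0.24, 0.30 and 0.33 in the treated arrays and -0.08 to 0.12 in the vehicle. This list too was chosen with earlier results of these data known. Its members were not alike. Abcc3, which exports glucuronides from hepatocytes into blood, stood at 8.03, 7.70 and 7.08 against 6.65 to 7.24 with a median of 6.94. Treated replicate 3 lay inside the vehicle range, and the log2 difference was 0.67 ± 0.30 (SE, n = 3 against 6, limma adjusted p = 0.882). Alas1, the first enzyme of haem synthesis, overlapped fully, with 11.03, 10.96 and 11.06 against 9.98 to 11.17 and a median of 10.38 (0.51 ± 0.19 SE, limma adjusted p = 0.852).

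Other oxidising enzymes on the CAR and PXR list had small differences. Cyp2c6v1 was 0.19, Cyp3a18 0.29 and Cyp3a2 0.12, each with an unadjusted limma p under 0.05. Aldh1a1, a retinaldehyde dehydrogenase named after its values were seen, was higher in all 3 arrays, at 12.89, 12.97 and 12.88 against 12.10 to 12.74 (0.49 ± 0.15 SE, n = 3 against 6, limma adjusted p = 0.706). Sult2a2, a hydroxysteroid sulfotransferase, was among the dimmest genes in both groups, at 3.57, 3.65 and 3.80 against 3.54 to 3.84. Gadd45b, a stress gene with a known CAR response, was -0.01, with vehicle replicate 6 apart at 6.74. The receptors themselves were Nr1i2 (PXR) at -0.20 and Nr1i3 (CAR) at -0.10, neither with an unadjusted limma p under 0.05. Of the aryl hydrocarbon receptor targets, 1 of 8 was higher at an unadjusted limma p under 0.05 and 0 lower (3.12% and 2.36% of all genes). It was Tiparp at 0.34 ± 0.15 (SE). Cyp1a1, the classical target of that receptor, stood at 5.73, 5.96 and 5.77 against 5.58 to 6.12, a log2 difference of -0.07 with a 95% confidence interval of -0.73 to 0.58.

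Among 29 measured genes of conjugation and export, 10 were higher at an unadjusted limma p under 0.05 and 0 lower (3.12% and 2.36% of all genes), with 8 above in all arrays (1.48% of all genes) and a median log2 difference of 0.17. The list shares 4 genes with the CAR and PXR list, so its count is not separate from it. Among glucuronosyltransferases besides Ugt2b1, Ugt2b7 stood at 6.04, 5.50 and 5.73 against 4.92 to 5.45, a log2 difference of 0.57 ± 0.15 (SE, n = 3 against 6, limma adjusted p = 0.668). Ugt2b35 was 0.17 and Ugt2b10 0.13. Among glutathione transferases, Gsta1 was 0.28 ± 0.08 (SE, limma adjusted p = 0.672) and Gstm4 0.40 ± 0.12 (SE, limma adjusted p = 0.744). Gstt3, named after its values were seen, stood at 11.84, 11.88 and 11.78 against 10.70 to 11.48 (0.68 ± 0.18 SE, limma adjusted p = 0.618). Mgst2, a microsomal relative also named after its values were seen, was 0.34 ± 0.08 (SE, limma adjusted p = 0.345). None of the 5 measured sulfotransferases on the list (Sult1a1, Sult1b1, Sult1c3, Sult1e1 and Sult2a2) had an unadjusted limma p under 0.05.

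Of 25 measured genes of ATF4 and serine synthesis, the programme that cells switch on when amino acids run short or proteins misfold, 6 were higher at an unadjusted limma p under 0.05 and 0 lower (3.12% and 2.36% of all genes). In 4 of the 25 all treated arrays lay above the vehicle (1.48% of all genes). The median log2 difference was 0.26, and 0.17 without treated replicate 3. The largest difference was in Ddit4, an inhibitor of mTOR, at 8.61, 9.21 and 8.77 against 6.45 to 7.91 with a median of 7.45. This made 1.55 ± 0.35 (SE, n = 3 against 6, limma adjusted p = 0.281). Against vehicle replicates 1 to 3 alone it was 1.07 and against replicates 4 to 6 alone 2.04, a split added after the data were seen. Fgf21, a hormone that the liver secretes in fasting and stress, stood at 8.87, 9.76 and 10.02 against 7.28 to 9.36 with a median of 8.05 (1.45 ± 0.48 SE, limma adjusted p = 0.788), and treated replicate 1 lay inside the vehicle range.

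The other members with an unadjusted limma p under 0.05 were Psat1 (0.88), an enzyme of serine synthesis named after its values were seen, Trib3 (0.77), Chac1 (0.71) and Atf3 (0.52). Gdf15, a stress hormone not on the list and also named after its values were seen, was 0.77 ± 0.21 (SE, n = 3 against 6, limma adjusted p = 0.672) with no overlap. Among 22 chaperones of the endoplasmic reticulum 1 was higher at an unadjusted limma p under 0.05 and 0 lower (3.12% and 2.36% of all genes). It was Pdia3 at 0.26, and the list median of 0.05 ran from 0.00 to 0.09 when single arrays were left out. Among 23 heat shock proteins 0 had an unadjusted limma p under 0.05.

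Of 19 measured genes of cholesterol synthesis, 3 were higher at an unadjusted limma p under 0.05 and 0 lower (3.12% and 2.36% of all genes), but in 0 of the 19 were all treated arrays above the vehicle. The 3 were Acat2 (0.60), Cyp51 (0.33) and Fdft1 (0.30). The list median was 0.27, and the treated list means of 0.30, 0.14 and 0.30 lay inside the vehicle range of -0.37 to 0.39. Insig1, the sterol-regulated brake on this pathway, shows the same spread, with 12.08, 11.87 and 11.66 against 9.85 to 12.15 and a log2 difference of 0.99 ± 0.44 (SE, n = 3 against 6, limma adjusted p = 0.882). Of 33 genes of fatty acid and triglyceride synthesis 3 were higher and 1 lower. Mid1ip1, an activator of acetyl-CoA carboxylase, stood at 0.95 ± 0.32 and Cidea, a lipid droplet protein, at 0.92 ± 0.40 (SE, limma adjusted p = 0.788 and 0.882). Dgat2, which makes triglyceride, was the lower one at -0.17, with 12.19, 12.21 and 12.11 against 12.24 to 12.42. Of 39 PPARA target genes 1, Fgf21, had an unadjusted limma p under 0.05, and the list median was -0.01.

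Respiratory chain and ribosomal genes held no member at an unadjusted limma p under 0.05, with 0 of 51 (median -0.00) and 0 of 33 (median -0.02). Of 30 proteasome subunits 1 was higher, Psmc3 at 0.22, with no overlap (1.48% of all genes). There were also 0 of 15 p53 targets and 0 of 15 clock output and repressor genes. Other pathways of the liver had a few members in either direction, beside 3.12% of all genes higher and 2.36% lower. Of 22 genes of bile acid synthesis and transport 1 was higher, Nr1h4, which encodes the bile acid receptor FXR, at 0.28, and 1 lower, the receptor Fgfr4 at -0.20. Of 22 genes of taurine and sulfur amino acids 1 was higher, Gclc, and 2 were lower. The 2 were Gnmt, which uses up S-adenosylmethionine, and Mat1a, which makes it, at -0.36 and -0.19. Gnmt stood at 12.65, 12.75 and 12.81 against 12.99 to 13.21, below every vehicle array as held for 0.893% of all genes, with a limma adjusted p of 0.852. Of 26 genes of glucose handling 2 were higher and 2 lower, among them the insulin receptor substrates Irs1 at 0.28 and Irs2 at -0.42.

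Of 33 immediate early genes 4 were higher and 1 lower at an unadjusted limma p under 0.05 (3.12% and 2.36% of all genes). In 1 of the 33, Atf3, all treated arrays lay above the vehicle (1.48% of all genes). Dusp1, a phosphatase of MAP kinases, was 11.10, 10.09 and 11.55 against 9.42 to 10.49 (0.75 ± 0.29 SE, n = 3 against 6, limma adjusted p = 0.852), with treated replicate 2 inside the vehicle range. Junb was the lower one at -0.61 ± 0.27 (SE, limma adjusted p = 0.882). Its treated arrays at 7.31, 7.30 and 7.17 lay inside a vehicle range of 7.13 to 8.998, which vehicle replicates 5 and 6 extend upward. The largest negative difference of all genes was that of Ubd, a ubiquitin-like protein induced by interferon, at -2.15 ± 0.86 (SE, limma adjusted p = 0.856). It stood at 6.40 and 6.53 in treated replicates 2 and 3 but at 9.63 in replicate 1, against 8.24 to 11.42 in the vehicle. Of the 38 genes of interferon and antigen presentation, 1 other, Ifi27l2b at 0.39, had an unadjusted limma p under 0.05.

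Mitosis genes differed between the treated arrays more than between the groups. Over 36 measured genes the treated list means were 1.19, 0.17 and -0.33, against a vehicle range of -0.54 to 0.52, and 0 had an unadjusted limma p under 0.05. The median log2 difference was 0.40, but -0.08 without treated replicate 1, 0.77 without treated replicate 3 and 0.24 without vehicle replicate 3. Aurka, a kinase of the mitotic spindle, stood at 7.43, 6.52 and 6.07 against 5.71 to 6.71.

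The labelled tissue was checked against hepatocyte markers, which were bright. Alb, the serum protein albumin, had a vehicle mean of 15.34, Ttr, a carrier of thyroid hormone, of 14.86 and Apob, the protein of very low density lipoprotein, of 14.43. The 16 measured hepatocyte markers had a median log2 difference of -0.01 and list means between -0.05 and -0.01 in the treated arrays, with 1 lower at an unadjusted limma p under 0.05, the glutamine synthetase Glul (-0.31 ± 0.10 SE, n = 3 against 6, limma adjusted p = 0.788). In bulk liver, fewer cells of a type and less RNA per cell cannot be told apart. The 17 stellate cell and matrix markers were all on the lower side, 3 of them at an unadjusted limma p under 0.05 (2.36% of all genes) and 0 past the adjusted threshold, with a median of -0.20 that was -0.32 without treated replicate 2. The 3 were the collagens Col1a1 (-0.34, and -0.12 by its other probe set) and Col4a1 (-0.39) and the proteoglycan Bgn (-0.33). In each of them 1 treated array lay inside the vehicle range. The list means of the treated arrays were -0.39, -0.07 and -0.29 against -0.23 to 0.18 in the vehicle.

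Endothelial markers had a median of -0.16 over 12 genes, but the treated list means were -0.47, -0.01 and 0.09, and the median was 0.05 without treated replicate 1 and -0.10 without vehicle replicate 2. In 2 of the 12, Egfl7 and Pecam1, all treated arrays lay below the vehicle (0.893% of all genes). Egfl7, a protein secreted by endothelial cells, stood at 8.44, 8.49 and 8.40 against 8.56 to 8.69 (-0.18 ± 0.06 SE, n = 3 against 6, limma adjusted p = 0.788). Kupffer cell and macrophage markers had a median of -0.11 over 13 genes and treated list means of -0.37, 0.03 and 0.04, against a vehicle range of -0.31 to 0.15, in which replicate 5 stood apart as the lowest. Without treated replicate 1 that median was 0.04. Markers of lymphocytes and other leukocytes had a median of -0.13 over 17 genes, which ran from -0.16 (without vehicle replicate 5) to -0.06 (without vehicle replicate 3). Bile duct markers had one of 0.01 over 8. Red blood cell markers had a median of -0.29 over 6 genes (-0.49 without treated replicate 1), with treated list means of 0.06, -0.42 and -0.59 and vehicle means of -0.52 to 0.32. Hbb, the beta chain of haemoglobin, stood at 13.26, 12.67 and 12.61 against 12.34 to 13.72, with vehicle replicate 1 apart as the lowest. Among the treated arrays, the list means of replicate 1 were lowest for Kupffer and endothelial markers and highest for mitosis and red cells. Whether the makeup of the tissue pieces has a part in any of the differences above was not tested.

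**Figure D3:**
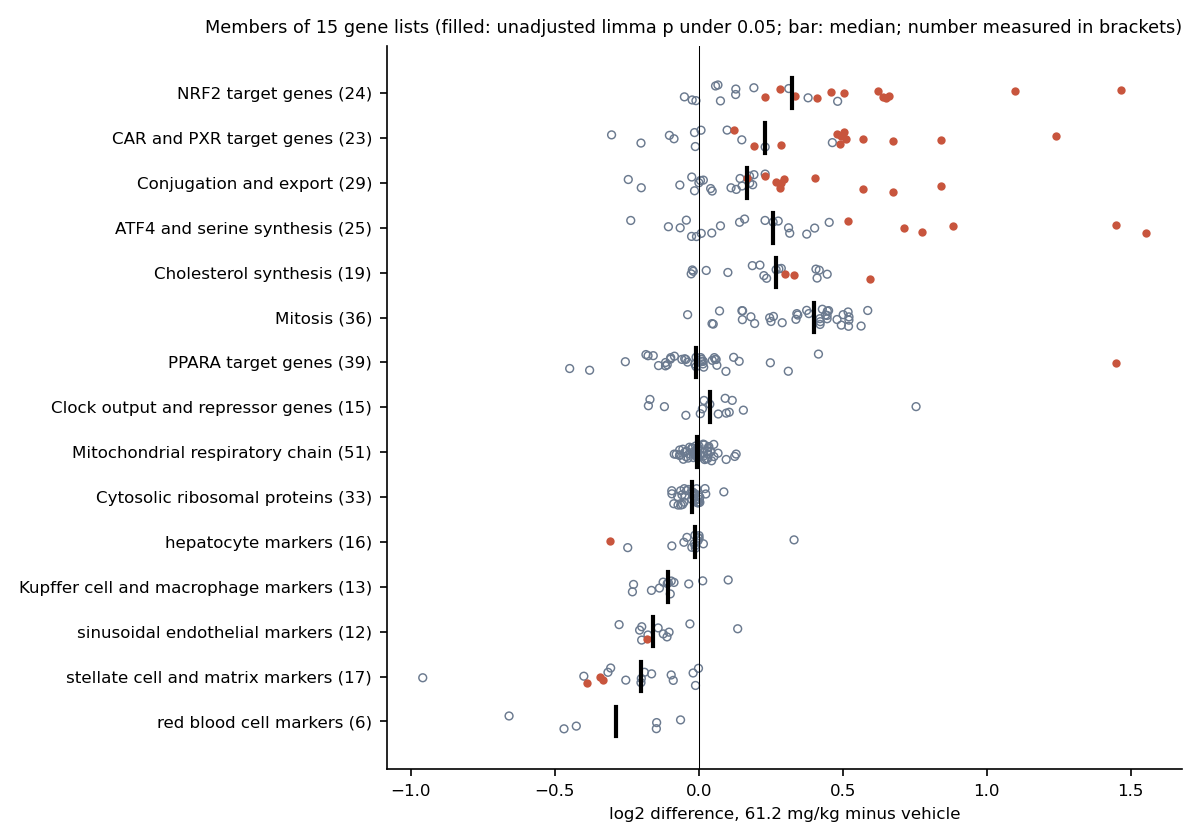
Log2 difference between 61.2 mg/kg and vehicle (horizontal) for each measured member of 15 gene lists, 1 list per line with its number of members in brackets. Filled points have an unadjusted limma p under 0.05 and the bar is the list median, which is 0.32 for NRF2 targets, 0.23 for CAR and PXR targets, 0.00 over all genes and -0.20 for stellate cell and matrix markers.

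The next dose, 122.5 mg/kg, was compared with 61.2 mg/kg directly, so that the vehicle arrays entered the estimate of spread but not the difference. Limma called 0 of 14218 genes between the 2 doses, while 674 (4.74%) had an unadjusted p under 0.05, 309 of them higher at 122.5 mg/kg (2.17%) and 365 lower (2.57%). For Ugt2b1 the difference was 0.13 ± 0.13 and for Gsta3 0.23 ± 0.27 (SE, n = 3 against 3, limma adjusted p = 0.965 and 0.967). For Ces2c it was 0.95 ± 0.30, for Abcc3 0.95 ± 0.34 and for Cyp3a23-3a1 0.41 ± 0.13, each with a limma adjusted p of 0.950.

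Beside the vehicle, which all doses share, the differences at 61.2, 122.5, 244.6, 489.2 and 978.5 mg/kg are given as values only. For Ugt2b1 they were 0.84, 0.97, 1.24, 1.33 and 1.38. For Gsta3 they were 1.47, 1.70, 2.68, 2.04 and 2.91, and for Ces2c 1.24, 2.19, 2.78, 3.32 and 3.79. For Pir they were 0.62, 0.58, 1.01, 1.18 and 1.48. These means were highest at the top dose, though Gsta3 and Pir dipped on the way. Wasf1 had its highest mean at 61.2 mg/kg, with 0.80, 0.33, 0.15, -0.09 and 0.06. Ddit4 stood at 1.55, 1.58, 1.72, 1.01 and 1.74, and Fgf21 at 1.45, 0.46, 0.42, -0.37 and 0.50.

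**Figure D4:**
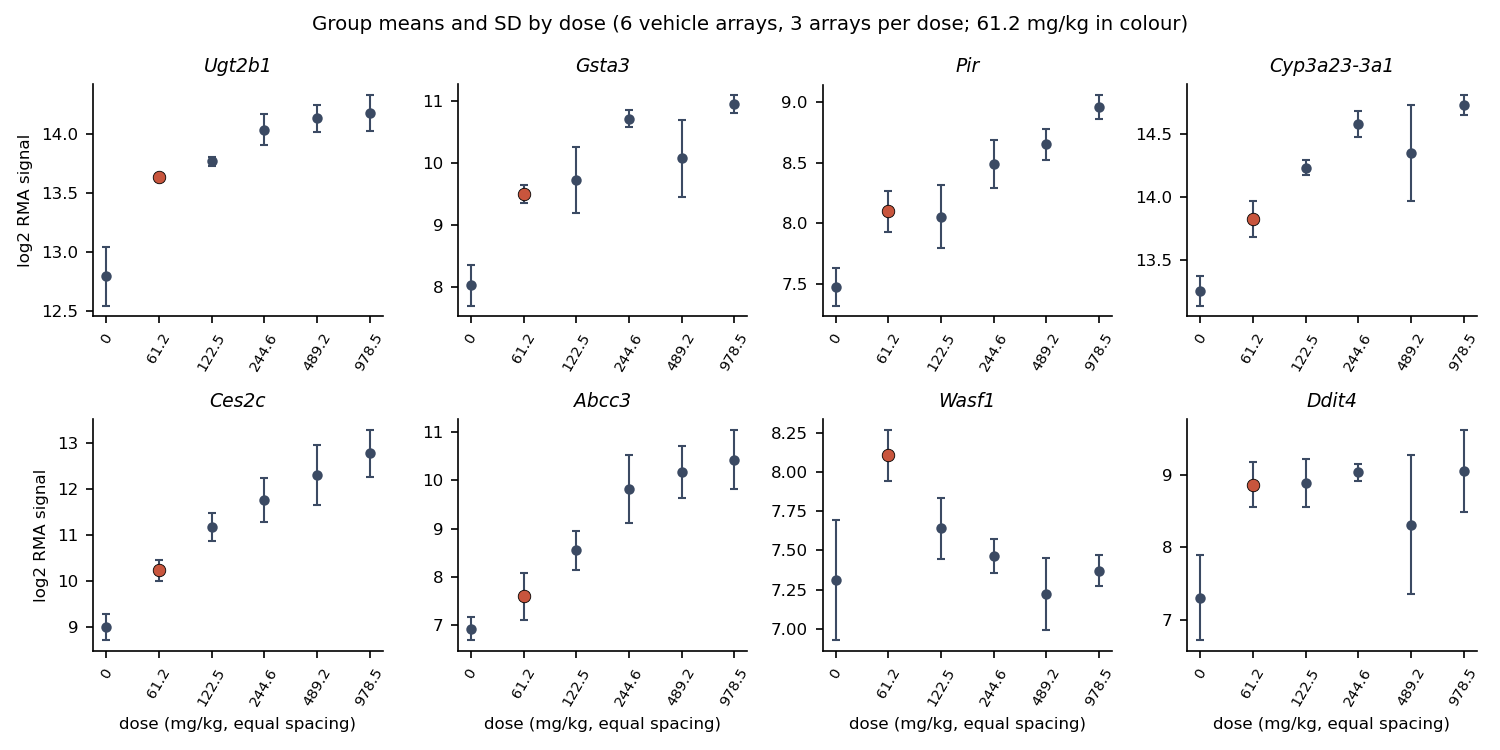
Group means (points) and SD (bars) of log2 signals of 8 genes against dose in mg/kg, drawn at equal spacing, with 6 vehicle arrays and 3 arrays per dose and the 61.2 mg/kg group in colour. Vertical scales differ by panel. Ugt2b1 was 0.84 above the vehicle at 61.2 mg/kg and 1.38 at 978.5 mg/kg, while the mean of Wasf1 is highest at 61.2 mg/kg.

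Between 978.5 and 61.2 mg/kg limma called 321 genes (2.26%), 187 higher at the top dose (1.32%) and 134 lower (0.942%). The count was 136 without treated replicate 1 at 61.2 mg/kg, 178 without replicate 2 and 219 without replicate 3. Without replicate 1, 2 or 3 at 978.5 mg/kg it was 190, 215 and 196. Several genes of detoxification rose from the lowest to the top dose, among them both genes called at 61.2 mg/kg. Ces2c rose from 10.23 to 12.78, a log2 difference of 2.55 ± 0.30 (SE, n = 3 against 3, limma adjusted p = 0.000135). Abcc3 rose by 2.83 ± 0.34 and Alas1 by 1.44 ± 0.22 (SE, limma adjusted p = 0.000169 and 0.00156), the latter from a level that overlapped the vehicle. Gsta3 rose by 1.45 ± 0.27, Cyp3a23-3a1 by 0.90 ± 0.13 and Pir by 0.86 ± 0.13 (SE, limma adjusted p = 0.00549, 0.00109 and 0.00156). Ugt2b1 rose by 0.54 ± 0.13 (SE, limma adjusted p = 0.0335), and this call was lost without replicate 1, 2 or 3 at 61.2 mg/kg (limma adjusted p = 0.118, 0.0813 and 0.0803) and without replicate 1 or 2 at 978.5 mg/kg (0.1001 and 0.125). Other genes described above were not called between these doses. Akr7a3 was 0.37 higher at the top dose, Gclm 0.54, Gstt3 0.60 and Nqo1 0.78 (limma adjusted p = 0.628, 0.0805, 0.144 and 0.184), and Ugt2b7 had a difference of -0.44. The CAR and PXR list had 14 of 23 members called higher and 0 lower in this contrast, the NRF2 list 7 of 24 and 0, and the proteasome list 8 of 30 and 0.

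A second set of genes lay near the vehicle level at 61.2 mg/kg and differed at the top dose. Sult2a2 went from 3.67 ± 0.11 (SD, n = 3) to 7.47 ± 0.94, with a vehicle mean of 3.69 ± 0.12 (SD, n = 6). It rose by 3.79 ± 0.30 (SE, limma adjusted p = 1.45e-06), a fold that is a lower bound since its signal at the lowest dose was near the dimmest of the arrays. Cyp1a1 rose by 2.31 ± 0.36 and Gadd45b by 1.76 ± 0.22 (SE, limma adjusted p = 0.00156 and 0.000169). Akr1b7, an aldo-keto reductase, rose by 3.41 ± 0.82 (SE, limma adjusted p = 0.0330), with an SD of 1.71 at the top dose, and the call was lost without replicate 1, 2 or 3 at 61.2 mg/kg (limma adjusted p = 0.124, 0.0772 and 0.0760) and without replicate 1 or 2 at 978.5 mg/kg (0.0830 and 0.149).

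Some genes of the circadian clock belonged to this second set. Dbp and Per3, both on the list of clock output and repressor genes, were at 0.15 ± 0.45 and 0.01 ± 0.20 against the vehicle at 61.2 mg/kg (SE, n = 3 against 6). Vehicle replicate 2 stood apart as the lowest for Per3. From 61.2 to 978.5 mg/kg Dbp and Per3 rose by 2.72 ± 0.52 and 1.52 ± 0.23 (SE, n = 3 against 3, limma adjusted p = 0.00745 and 0.00118). Npas2, a clock activator, was -0.06 ± 0.17 against the vehicle at 61.2 mg/kg and fell by 1.69 ± 0.20 from there to the top dose (SE, limma adjusted p = 0.000135). The labels used here give no time of day for the arrays. Of the 15 measured clock output and repressor genes, 5 were called higher at the top dose than at 61.2 mg/kg and 0 lower (1.32% and 0.942% of all genes).

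Among the falls, Slc6a6, the taurine transporter, fell by 3.25 ± 0.31 and Stac3 fell by 3.23 ± 0.61 (SE, n = 3 against 3, limma adjusted p = 8.71e-06 and 0.00594). Slc6a6 stood at 9.66, 10.08 and 9.07 at 61.2 mg/kg against 9.77 to 10.48 in the vehicle, so that treated replicates 1 and 3 lay below every vehicle array and replicate 2 inside the range. Its difference from the vehicle, -0.46 ± 0.27, had an unadjusted limma p of 0.103. Socs2, an inhibitor of growth hormone signalling, fell by 2.55 ± 0.47, and Nrep fell by 1.88 ± 0.35 (SE, limma adjusted p = 0.00549 and 0.00573). Cdkn1a, which encodes the cell cycle inhibitor p21, fell by 1.70 ± 0.28, and Angptl4, an inhibitor of lipoprotein lipase, fell by 1.69 ± 0.23 (SE, limma adjusted p = 0.00204 and 0.000441). At 61.2 mg/kg Socs2, Stac3, Nrep and Angptl4 had log2 differences from the vehicle of 0.65, 0.13, 0.13 and 0.12. That of Cdkn1a was -0.48 ± 0.24 (SE), with -0.06 by its other probe set. None of these 5 had an unadjusted limma p under 0.05, and Socs2 and Stac3 varied among the vehicle arrays with an SD of 0.93 each.

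**Figure D5:**
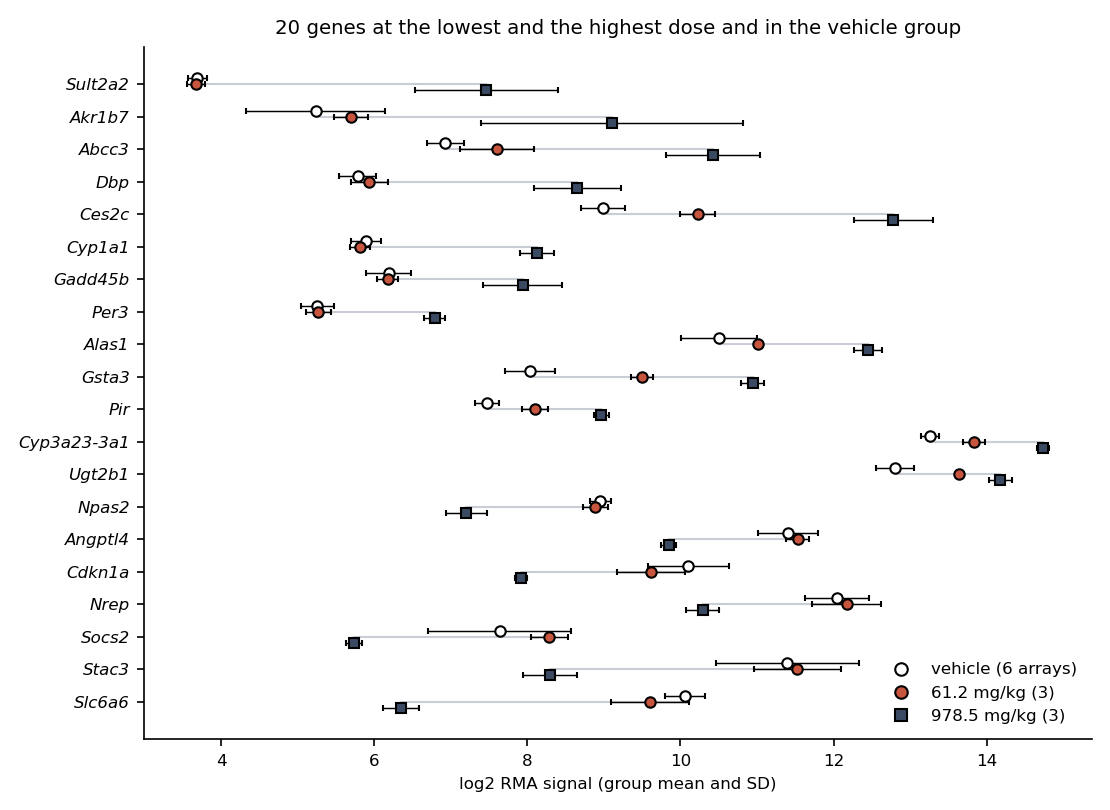
Mean log2 signals with SD of 20 genes called between 978.5 and 61.2 mg/kg, in the vehicle (open circles, 6 arrays), at 61.2 mg/kg (coloured circles, 3 arrays) and at 978.5 mg/kg (squares, 3 arrays). Gsta3, Ces2c, Pir, Cyp3a23-3a1 and Ugt2b1 lie between the vehicle and the top dose at 61.2 mg/kg, whereas Sult2a2, Cyp1a1, Gadd45b and Per3 lie at the vehicle level.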

How the data were processed

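Liver RNA on 21 arrays was used, 3 at 61.2 mg/kg, 6 vehicle and 12 at higher doses. The deposited log2 signals were made by the authors by robust multi-array averaging (RMA), per the submitters' processing notes, and its version is not given in the sources used here. Per the labels, 100 ng of total RNA was amplified and labelled with biotin. RMA subtracts background and matches the arrays' distributions, which compresses dim signals and removes shifts shared by all genes. No further scaling was applied.

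The platform annotation pairs 20832 of 31099 probe sets with a single gene, 436 with more and 9831 with no gene, and only the first kind was used. Where a gene had 2 or more probe sets (4526 of 14218 genes), the one of highest mean signal stood for it. Limma 3.58.1 in R 4.3.3 was fitted with 1 mean per group over all 21 arrays (15 residual degrees of freedom), moderated by eBayes, and p-values were adjusted after Benjamini and Hochberg across all genes at 0.05. Tables and plots were made with Python 3.11.15, pandas 2.3.3 and matplotlib 3.10.9. The fit was tested on simulated data with independent normal noise and the same SD for a gene in all groups. That test does not bear on groups of unequal spread.

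The comparison and the 40 gene lists (893 of 1060 entries measured) were chosen with earlier results of these data known. Genes were named by rule. It took called genes with no overlap, filled up to 8 per direction by p, 4 members of each list by p, a set of known genes and the 5 largest calls between doses, with placeholder symbols left out. Genes outside it are marked where named, and some inside it were left out for length. Cyp2b1 and Cyp2b2 belong to it but had no probe set of their own here. Srxn1, Txnrd1, Hmox1, Slc7a11 and other list members with a bare difference were named to describe their lists. Lists were described by counts and medians with no test. Promoter sequences came from RefSeq (GRCr8), in which 11 of 12 leading genes, picked by no fixed rule, were found. Alternatives are listed in the closing section.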

Additional observations from a re-analysis of the deposited data

Results flagged for a closer look

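In 82 genes and 40 list means, the vehicle group was searched for a highest or lowest array set apart from the other vehicle arrays by Dixon's test at its 95% level. Such a search marks about 5% of groups by chance alone, and here it marked 6 genes and 3 lists. Akr7a3 stood at 11.81 in vehicle replicate 4, above the other vehicle arrays and below the treated ones. Sapcd1 was highest in vehicle replicate 2, at 6.30. Gadd45b was highest in vehicle replicate 6, at 6.74. Hbb was lowest in vehicle replicate 1, at 12.34, and so was Hfe, a regulator of iron uptake, at 8.82. Per3 was lowest in vehicle replicate 2, at 4.83. The mean of bile acid genes was lowest in vehicle replicate 6, at -0.16 relative to the vehicle mean, and that of immediate early genes was highest there, at 0.39. The mean of Kupffer cell and macrophage markers was lowest in vehicle replicate 5, at -0.31.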

How the results depend on the processing

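The labels do not say that the replicate numbers shared by both groups pair the arrays. The deviations of same-numbered arrays from their group means correlated at 0.12, 0.06 and -0.03. Those of differently numbered vehicle and treated arrays correlated at -0.24 to 0.30, so these values cannot tell whether arrays are paired. With the replicate number as a block, over all arrays or over replicates 1 to 3, limma called 1 gene in place of 2 (Ugt2b1 adjusted p = 0.0424, Gsta3 0.0622), and 438 in place of 321 between 978.5 and 61.2 mg/kg. Numbers 4 to 6 occur only in the vehicle, so those arrays drop out and both settings are the same fit. Its differences from the vehicle are those against vehicle replicates 1 to 3 alone. With only the 9 compared arrays the count at 61.2 mg/kg was also 1, but the higher gene was Gsta3 (limma adjusted p = 0.0404). It was 1, with Ugt2b1 as the higher gene, under a floor at the 20th percentile and with only vehicle replicates 1 to 3. The count was again 1, with Ugt2b1, after arrays were quantile normalised again or centred on their medians, and with eBayes trend and robust options. With only vehicle replicates 4 to 6 it was 4 (Ugt2b1, Wasf1, Alas1 and Tsku, all higher), and the looser count was 140 in place of 42. These vehicle splits were added after the data were seen. Leaving out each of the 9 compared arrays in turn gave 0 to 2 calls at 61.2 mg/kg. Leaving out each array of the extreme doses, those at 978.5 mg/kg added after the data were seen, gave 136 to 219 calls between them. By unadjusted limma p the count was 779, with 443 higher and 336 lower, and with a 1.5-fold difference 42, with 39 and 3. None of 72 genes followed with 1 value per gene changed the sign of its difference from the vehicle, but other probe sets of Crtac1 and Stfa3 stood at 0.02, and Sele, Tdrd1 and Stfa3 lay wholly under the floor, at a difference of 0. Alas1 and Tsku against vehicle replicates 4 to 6 alone gave 0.89 and 2.17 (limma adjusted p = 0.00287 and 0.0301), and against replicates 1 to 3 alone 0.14 and 0.28. Between the extreme doses, the call of Ugt2b1 was also lost after the repeated quantile normalisation (limma adjusted p = 0.0519) and that of Akr1b7 under the eBayes options (limma adjusted p = 0.0727). The cause was not tested.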

Other observations

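Tsku, which encodes the secreted protein tsukushi and is named after its values were seen, had a split vehicle group, with replicates 1 to 3 at 10.42, 10.48 and 11.004 and replicates 4 to 6 at 9.33, 8.45 and 8.44. Its treated arrays stood at 11.24, 10.31 and 11.18. Of the 42 genes of the looser rule, 7 (16.7%) had vehicle replicates 1 to 3 all above replicates 4 to 6, which held for 5.30% of all genes. The reverse order held for 5.13% of all genes and was not counted among the 42. This split was chosen after the data were seen, and the 42 were picked by p and fold from these same arrays. The shares are thus not on an equal footing. The labels name nothing that separates these vehicle arrays apart from their numbers. Bcl6, a repressor whose level in the liver follows growth hormone, ran from 7.08 to 10.74 in the vehicle arrays and stood at 7.17, 9.01 and 7.88 at 61.2 mg/kg.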
